A study of Homo sapiens with 1 sample.

Results

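Glycolysis and hypoxia-response genes were followed as a group of 9 named genes: PGK1, LDHA, ENO1, ALDOA, BNIP3, VEGFA, SLC2A1, PDK1 and ADM. They were taken by symbol from the 33538 genes of the count table, of which 29635 had at least 1 UMI (unique molecular identifier, a tag that marks 1 captured RNA molecule). All 9 were found. The data were 1 single-cell RNA-seq library of H9 cells, an established human embryonic stem cell (hESC) line. The cells had the WT genotype, that is, the human form of HAR123 (hHAR123), a human accelerated region. They were on the way to neural progenitor cells (NPCs), after treatment with Rock inhibitor, Dorsomorphin and SB431542, growth as embryoid bodies and replating on Matrigel. Independent clones of this genotype were pooled for loading, and the table does not tell them apart. No other genotype is analysed here. With no replicate library, nothing was tested between samples and p-values are left out. Every interval is a 95% interval and covers counting error only.

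Glycolysis splits glucose into pyruvate in the cytosol. SLC2A1 (GLUT1) carries glucose into the cell, ALDOA, PGK1 and ENO1 are enzymes of the lower and middle steps, and LDHA turns pyruvate into lactate. When oxygen is low, the transcription factor HIF1 is no longer degraded and raises the RNA of these genes together with others. Among the others are PDK1, a kinase that holds pyruvate back from the mitochondria, BNIP3, a receptor for the removal of mitochondria, and the secreted factors VEGFA and ADM (adrenomedullin), which act on vessels. Neural progenitors are known for strong glycolysis, which is lowered as they become neurons.

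The table held 14726 barcodes. Cells were kept with 2000 to 10000 detected genes and a mitochondrial share of UMIs below 0.1, which left 13925 cells with a median of 17900 UMIs. The rule divided them into 3 classes. Contractile cells had at least 5 UMIs of ANXA1, TFPI2 and CTGF together per 10000 and numbered 1584 (11.4%, 10.9 to 11.9%). Newborn neuron-like cells had at least 5 UMIs of STMN2, ELAVL4, INA and DCX per 10000, with at least 3 of the 4 found, and numbered 120 (0.862%, 0.715 to 1.03%). The other 12221 cells (87.8%, 87.2 to 88.3%) formed the last class. Close to the contractile limit lay 228 cells at a score of 3 to 5 and 143 at 5 to 7. Close to the newborn neuron-like limit lay 63 cells at 3 to 5 and 20 at 5 to 7. The 14 cells that met both rules were counted as contractile.

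The genes of the class rules are high in their classes by construction, so only the other markers bear on the names. The 5 contractile markers outside the rule (TAGLN, ACTA2, MYL9, TPM1 and CNN1) summed to 10420 CPM (UMIs per 1000000 UMIs of the class) in contractile cells and 1557 CPM in other cells. The 4 newborn neuron markers outside the rule (GAP43, NSG2, ELAVL3 and TUBB3) summed to 502 CPM in newborn neuron-like, 152 CPM in contractile and 27.3 CPM in other cells. Of these, GAP43 was as high in contractile cells (145 CPM) as in newborn neuron-like cells (144 CPM). Forebrain progenitor markers were present in all classes, at 5549 CPM in contractile, 1355 CPM in newborn neuron-like and 2624 CPM in other cells. Blood markers were near 0 (0.208 CPM or less), and endothelial markers summed to 15.6 CPM or less. Some measures moved with the classes. Contractile cells had a median of 47217 UMIs, against 16950 in other and 13414.5 in newborn neuron-like cells. The 6 integrated stress response genes summed to 351 CPM in contractile and 118 CPM in other cells. The 6 immediate early genes summed to 278 and 139 CPM, and the 6 p53 targets to 247 and 107 CPM. The 5 cycling genes summed to 1143 CPM in contractile, 442 CPM in newborn neuron-like and 1643 CPM in other cells. By cell cycle scores, 45.8% of contractile and 32.7% of other cells were in G2/M. In S there were 31.2% and 42.3%, and in G1 23.0% and 25.1%. Of newborn neuron-like cells 83.3% were in G1. What part depth, stress or cycling had in the values of the 9 genes was not tested, apart from the depth and phase alternatives given beside them.

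The regions upstream of the genes are shown because HIF1 binds DNA at short motifs, ACGTG and GCGTG, in many promoters of its targets. RefSeq windows (GRCh38.p14) matched 8 of the 9 genes, with 12 start sites in all; VEGFA was not in the table. In the 250 bases before the start, ACGTG was found on either strand in 18.5% of 35116 windows and GCGTG in 32.2%. Either motif was found in 43.2% of all windows, and in 10 of the 12 windows of the 8 genes. The motifs overlap where a CACGTG is read on both strands. SLC2A1 had neither motif in its window, and PDK1 had none at the first start site and 2 matches of ACGTG at another. Below are the windows of PGK1 (chrX:78103998-78104247, + strand), of the first start site of LDHA (chr11:18394313-18394562, + strand), of BNIP3 (chr10:131981924-131982173, - strand) and of ADM (chr11:10304823-10305072, + strand). LDHA and BNIP3 had the most matches, PGK1 had both motifs, and ADM had the largest class difference. Each is written 5′ to 3′, with ACGTG or GCGTG, or their reverse complements, in capitals.
PGK1: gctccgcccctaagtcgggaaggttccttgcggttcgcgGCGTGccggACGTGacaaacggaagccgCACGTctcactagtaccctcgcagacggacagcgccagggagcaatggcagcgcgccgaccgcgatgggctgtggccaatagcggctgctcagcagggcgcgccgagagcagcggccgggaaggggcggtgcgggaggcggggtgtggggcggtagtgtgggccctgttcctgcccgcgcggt
LDHA: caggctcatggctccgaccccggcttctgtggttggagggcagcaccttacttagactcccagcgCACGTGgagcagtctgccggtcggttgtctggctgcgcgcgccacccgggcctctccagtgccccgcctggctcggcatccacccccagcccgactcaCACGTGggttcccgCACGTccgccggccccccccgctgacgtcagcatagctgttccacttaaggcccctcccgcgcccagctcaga
BNIP3: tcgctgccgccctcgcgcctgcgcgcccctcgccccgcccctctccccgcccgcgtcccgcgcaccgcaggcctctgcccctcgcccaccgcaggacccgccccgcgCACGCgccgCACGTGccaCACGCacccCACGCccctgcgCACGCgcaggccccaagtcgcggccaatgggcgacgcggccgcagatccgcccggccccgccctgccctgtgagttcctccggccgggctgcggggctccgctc
ADM: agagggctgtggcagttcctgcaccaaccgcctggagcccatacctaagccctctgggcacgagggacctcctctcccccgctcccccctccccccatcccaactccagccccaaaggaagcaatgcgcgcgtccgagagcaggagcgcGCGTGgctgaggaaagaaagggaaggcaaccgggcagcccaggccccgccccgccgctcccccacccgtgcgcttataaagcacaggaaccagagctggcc
LDHA had 5 matches of ACGTG here, BNIP3 had 2 of ACGTG and 4 of GCGTG, PGK1 had 2 and 1, and ADM had 1 of GCGTG. These are matches of letters, not sites shown to be bound.

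Contractile cells had more RNA of 8 of the 9 genes per UMI than other cells (of all 9 by UMIs per cell), and ADM stood farthest apart. The median ratio of CPM over the 9 genes was 1.79, while over the 18642 genes with at least 100 UMIs in both classes together it was 0.774. A CPM ratio of at least 2 was reached by 4 of the 9 genes, against 7.5% of all genes tested, and no member fell to 0.5 or below, against 23.7% of all genes tested. Because contractile cells held more UMIs, the ratio of UMIs per cell was larger, with a median of 4.49 over the 9 genes and 1.94 over all genes. By UMIs per cell every contractile ratio given here is 2.51 times as large, a step of 1.33 on the log2 scale for the median of all genes. Relative to the median gene, which is the same on both scales, the 9 genes stood at a median of 2.31.

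**Figure D1:**
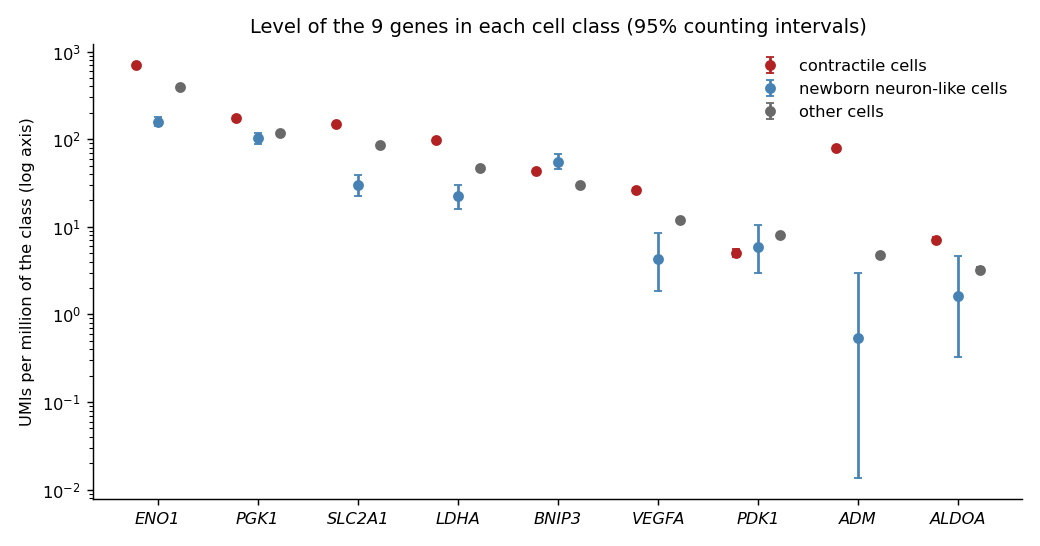
Level of each of the 9 genes (x axis, ordered by the level in other cells) in UMIs per 1000000 UMIs of the class (y axis, log scale). Red points are contractile cells, blue points newborn neuron-like cells and grey points other cells, and bars are exact 95% Poisson intervals. ADM lies at 80.0 CPM in contractile cells and 4.73 CPM in other cells, and BNIP3 is highest in newborn neuron-like cells, at 55.6 CPM.

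SLC2A1, the glucose transporter, was measured at 150 CPM (148 to 153) in contractile cells, 29.9 CPM (22.6 to 38.9) in newborn neuron-like cells and 85.4 CPM (84.2 to 86.5) in other cells. The contractile level was 1.76 times the level in other cells (1.72 to 1.80). The newborn neuron-like level was 0.350 of that in other cells, and 0.591 with a class limit of 3 UMIs per 10000 in place of 5. The gene lies on chr1:42925353-42958893 (GRCh38). Its close relative SLC2A3, which carries glucose with high affinity, had a larger ratio of 2.77 (2.70 to 2.84). SLC2A1 gave a smaller share of the UMIs of the pair in contractile cells, 51.9% against 62.9% in other cells. In this 3′ assay a UMI stands for 1 captured RNA molecule, and capture can differ between genes. Whether gene length had a part in the shares of such pairs was not tested.

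The enzymes among the 9 genes also had higher levels per UMI in contractile than in other cells. ENO1, enolase, was at 702 CPM (696 to 708) in contractile, 158 CPM (141 to 177) in newborn neuron-like and 392 CPM (390 to 395) in other cells, a ratio of 1.79 (1.77 to 1.81) between contractile and other cells. It lies on chr1:8861000-8879190. Every one of the 1584 contractile cells had an ENO1 UMI. PGK1, phosphoglycerate kinase, was at 175 CPM (172 to 178), 103 CPM (89.1 to 119) and 118 CPM (117 to 119) in the same order. Its ratio was 1.49 (1.46 to 1.52), one of the smallest of the 8, and its levels in newborn neuron-like and other cells were close, at a ratio of 0.874 (0.755 to 1.01). It lies on chrX:77910739-78129295. ENO1 and PGK1 differed in newborn neuron-like cells, where ENO1 was at 0.403 (0.358 to 0.452) of its level in other cells.

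LDHA, which makes lactate, was at 98.3 CPM (96.1 to 101) in contractile, 22.4 CPM (16.2 to 30.3) in newborn neuron-like and 46.7 CPM (45.8 to 47.5) in other cells. It lies on chr11:18394560-18408425. The ratios to other cells were 2.11 (2.05 to 2.17) and 0.481 (0.346 to 0.651). LDHB, the subunit that favours the reverse reaction, was close to even between contractile and other cells (ratio 0.973, 0.965 to 0.982). LDHA made up 10.3% (10.0 to 10.5%) of the UMIs of the pair in contractile cells, 3.44% (2.49 to 4.63%) in newborn neuron-like cells and 5.02% (4.93 to 5.11%) in other cells. LDHB was the main subunit by UMIs in all classes.

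ALDOA, aldolase, was counted at 7.08 CPM (6.49 to 7.70) in contractile, 1.60 CPM (0.331 to 4.68) in newborn neuron-like and 3.24 CPM (3.02 to 3.48) in other cells, with 3 UMIs in all in newborn neuron-like cells. The contractile ratio was 2.18 (1.95 to 2.44). Its level needs care. ALDOA lies on chr16:30064164-30070457, and the table also lists AC093512.2, a gene on the same strand that shares 42.8% of the exonic bases of ALDOA in the GENCODE annotation and 74% of the last 500. AC093512.2 was counted at 2.71 CPM. How reads from the shared bases were assigned was not tested, so the level of ALDOA is uncertain.

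The genes of the hypoxia response outside glycolysis did not move alike. ADM, a secreted peptide, had the largest class difference of the 9 genes. Contractile cells had 80.0 CPM of ADM (78.1 to 82.1) and other cells 4.73 CPM (4.45 to 5.01), a ratio of 16.9 (15.9 to 18.1). It lies on chr11:10305073-10307397. At an equal depth of 5000 UMIs per cell the ratio was 21.6, and 29.7% (27.4 to 32.0%) of contractile cells had an ADM UMI, against 1.79% (1.56 to 2.04%) of other cells. Without thinning these shares were 78.2% and 6.70%, at median depths of 47217 and 16950 UMIs. Newborn neuron-like cells held 1 ADM UMI in all, and after thinning 0 of 119 cells had one, which allows a share of cells with a UMI of up to 2.52% by 3 counts (3.05% by the Clopper-Pearson interval). No cell type of the library is known to lack the gene, so the part of free RNA in the low share of other cells was not tested.

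VEGFA, the growth factor of vessels, was at 26.3 CPM (25.1 to 27.4) in contractile, 4.27 CPM (1.85 to 8.42) in newborn neuron-like and 12.1 CPM (11.6 to 12.5) in other cells. The ratios to other cells were 2.18 (2.06 to 2.31) and 0.355 (0.153 to 0.699), the second resting on 8 UMIs and at 0.689 with a class limit of 3 UMIs per 10000. The gene lies on chr6:43770184-43786487. BNIP3 had another order. It was at 43.3 CPM (41.8 to 44.8) in contractile, 55.6 CPM (45.4 to 67.3) in newborn neuron-like and 30.3 CPM (29.6 to 31.0) in other cells, a ratio of 1.83 (1.50 to 2.23) between newborn neuron-like and other cells. No other gene of the 9 was higher per UMI in newborn neuron-like than in other cells, although after thinning PGK1 (1.09) and ALDOA (1.18) were above 1 as well. BNIP3 lies on chr10:131967684-131981967. Its relative BNIP3L had a ratio of 0.501 (0.486 to 0.516) between contractile and other cells. BNIP3 gave 40.6% of the UMIs of the pair in contractile cells, 28.7% in newborn neuron-like and 19.3% in other cells.

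PDK1, the kinase that inactivates pyruvate dehydrogenase, was the exception among the 9 genes. It was at 5.02 CPM (4.53 to 5.55) in contractile, 5.88 CPM (2.93 to 10.5) in newborn neuron-like and 7.96 CPM (7.60 to 8.33) in other cells, a contractile ratio of 0.630 (0.564 to 0.704). Its direction turned with the scale, since contractile cells held 1.58 times as many PDK1 UMIs per cell (1.41 to 1.76). Relative to the median gene PDK1 stood at 0.815 on either scale. PDK1 lies on chr2:172555373-172608669. It gave 15.1% (13.7 to 16.5%) of the UMIs of the 4 PDK genes in contractile cells and 13.2% (12.7 to 13.8%) in other cells.

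Newborn neuron-like cells lay at the low end for most of the 9 genes. The median ratio to other cells was 0.481, against 0.934 over the 18039 genes tested. A ratio of 0.5 or less was reached by 6 of the 9 genes (SLC2A1, VEGFA, ENO1, LDHA, ALDOA and ADM), against 15.6% of all genes tested, and none reached 2, against 10.5%. The counts behind 3 of the 6 were small, with 8 UMIs of VEGFA, 3 of ALDOA and 1 of ADM, and the interval of ALDOA reached 1.45. ENO1 and SLC2A1 rested on 296 and 56 UMIs. ENO2, the enolase of neurons, was higher in newborn neuron-like cells (ratio 1.96, 1.60 to 2.37), and the share of ENO1 in the pair was 73.3% (68.7 to 77.5%) there and 93.0% in other cells. The count of 6 was 5 after thinning, where LDHA was at 0.503, ALDOA at 1.18 and PDK1 at 0.212. That PDK1 ratio rested on 1 UMI, with an interval up to 1.19. Without thinning PDK1 was at 0.738 (0.368 to 1.32). The count was 5 as well with classes from clusters (LDHA 0.532) and below a mitochondrial share of 0.05 (LDHA 0.586). It moved most with the limit of the class. With a limit of 3 UMIs per 10000 there were 183 such cells, the median ratio was 0.689 and 2 genes were at 0.5 or below.

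The class difference was not a step at the contractile limit. Along bins of the contractile score, from 0 to 0.5 per 10000 up to 20 and over, ADM was at 2.75, 4.32, 8.13, 17.7, 29.4, 53.1, 69.3 and 94.5 CPM. Each bin was above the one before, and the lower 5 bins lie within the class of other cells. ENO1 moved over the same bins from 364 to 629 CPM below the limit and on to 725 CPM, and LDHA from 41.7 to 78.4 and on to 101 CPM. VEGFA had reached 22.2 CPM at a score of 2 to 3, close to its level of 25.8 CPM at the top. SLC2A1 stayed between 82.3 and 84.4 CPM up to a score of 2 and then reached 169 CPM. PDK1 was at 8.16 CPM in the lowest and 5.10 CPM in the highest bin. The median depth moved with the score, from 16682.5 to 53588 UMIs.

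**Figure D2:**
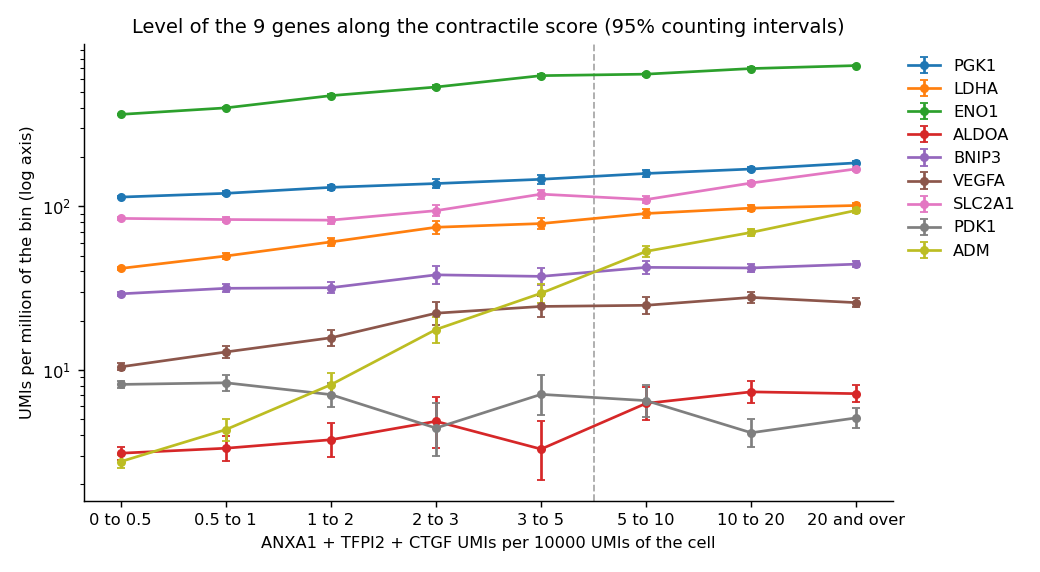
Level of each of the 9 genes in UMIs per 1000000 UMIs of the bin (y axis, log scale) against the summed UMIs of ANXA1, TFPI2 and CTGF per 10000 UMIs of the cell (x axis, 8 bins). Bars are exact 95% Poisson intervals, and the dashed line is the limit of 5 for contractile cells; ADM climbs from 2.75 to 94.5 CPM while PGK1 goes from 114 to 184 CPM.

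Cell cycle phase also went with some of the genes. Among other cells, LDHA was at 32.4 CPM (30.8 to 34.1) in cells scored as G1, 47.1 CPM (45.7 to 48.5) in S and 52.96 CPM (51.5 to 54.4) in G2/M. ENO1 was at 306, 410 and 415 CPM in the same order. SLC2A1 was highest in S, at 98.6 CPM, against 66.4 CPM in G1 and 81.0 CPM in G2/M, and PDK1 shared this order with 9.98 CPM in S, 6.39 in G1 and 6.65 in G2/M. PGK1 differed little, between 116 and 123 CPM, and VEGFA lay between 11.8 and 12.2 CPM. In every phase the contractile cells were above the other cells for ENO1 and LDHA, with 608 and 83.6 CPM even in G1.

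Clusters were also built without the 9 genes and the related genes, and their levels are over all cells of a cluster. Clusters 4 (1697 cells) and 8 (168 cells) held most of the contractile cells, and 81.5% and 57.1% of their cells met the contractile rule. The rest were other cells, 18.5% in cluster 4 and 42.9% in cluster 8. SLC2A1 was at 149 CPM in cluster 4 and 28.4 CPM in cluster 8, ADM at 73.1 and 35.1 CPM, VEGFA at 26.7 and 18.4 CPM and PDK1 at 5.20 and 2.79 CPM. In cluster 8 these rested on 51, 63, 33 and 5 UMIs. In the same order ENO1 was at 693 and 925 CPM, LDHA at 95.7 and 135 CPM, PGK1 at 171 and 223 CPM and BNIP3 at 42.1 and 72.5 CPM. Cluster 8, led by S100A10, S100A11 and PHLDA2, had the highest ENO1, LDHA, PGK1 and BNIP3 levels of the 10 clusters and, after cluster 10, the lowest SLC2A1 level (25.1 CPM in cluster 10, of whose 106 cells 86.8% were newborn neuron-like). For BNIP3 its interval (60.6 to 86.1 CPM) overlapped that of cluster 10 (46.0 to 69.9 CPM). The median depth was 47862 UMIs in cluster 4 and 9624.5 in cluster 8. Cluster 7 came next for ADM after these, at 15.8 CPM. Of its 957 cells 90.3% were other cells and 9.40% were contractile. Which of them held the ADM UMIs was not tested.

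Joint variation was weak at equal depth. Each cell with at least 5000 UMIs (13897 cells) was thinned to 5000 UMIs, and the 36 pairs of the 9 genes were correlated over cells on log(1 + UMIs). All cells come from 1 library, and the counts are sparse, with a mean between 0.0162 (ALDOA) and 2.01 (ENO1) UMIs per cell. Pearson's r had a mean of 0.0232 over the 36 pairs. The highest were 0.135 for ENO1 with ADM and 0.127 for LDHA with ENO1, and no other pair reached 0.1. Within the class of other cells the mean was 0.00748, the highest pair was LDHA with ENO1 at 0.0934, and ENO1 with ADM was at 0.0320. In other cells with an LDHA UMI the mean of ENO1 was 2.13 UMIs, and in those without one it was 1.77.

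Lists of other genes were correlated the same way in the same other cells, and some were higher and some nearly as low. The 5 cycling genes had a mean r of 0.516 and the 8 contractile markers 0.214. The 6 immediate early genes were at 0.0898 and the 6 p53 targets at 0.0809, over genes that were as sparse, with the lowest mean at 0.00517 and 0.00894 UMIs per cell. The glycolysis enzymes TPI1, GAPDH, PGAM1 and PKM, with means from 0.852 to 7.22 UMIs, were at 0.0822. These are also the other glycolysis genes with the highest r with the 9 genes. A longer list of enzymes, with GPI, PGK1, LDHA, ENO1 and ALDOA added, was at 0.0463, with pairs from -0.0113 to 0.119. The 6 integrated stress response genes were at 0.0133 and the 8 forebrain progenitor markers at 0.0102, against 0.00748 for the 9 genes. The 8 newborn neuron markers were at 0.00702, but the class rule took out cells high in 4 of them. That value is therefore no fair measure for the 9 genes. In all kept cells these 3 lists were at 0.0734, 0.000793 and 0.140 in this order, against 0.0232 for the 9 genes. The rule also took out cells high in 3 of the 8 contractile markers, which were at 0.478 in kept cells. Sparse counts lower r, so these values are descriptions at this depth, and the lists differ in level. Read against the sum of the other members, 2 of the 6 genes with a mean of at least 0.05 UMIs in both the kept and the other cells reached r of 0.1 in kept cells (ENO1 0.157 and LDHA 0.109), against 3.81% of the genes tested. None reached it in contractile cells (1.32% of genes) or in other cells (0.588% of genes), where ENO1 was highest at 0.0849. ALDOA and PDK1 were below that mean. ADM was above it only through the contractile cells, and its r of 0.142 in kept cells is given as a value alone.

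**Figure D3:**
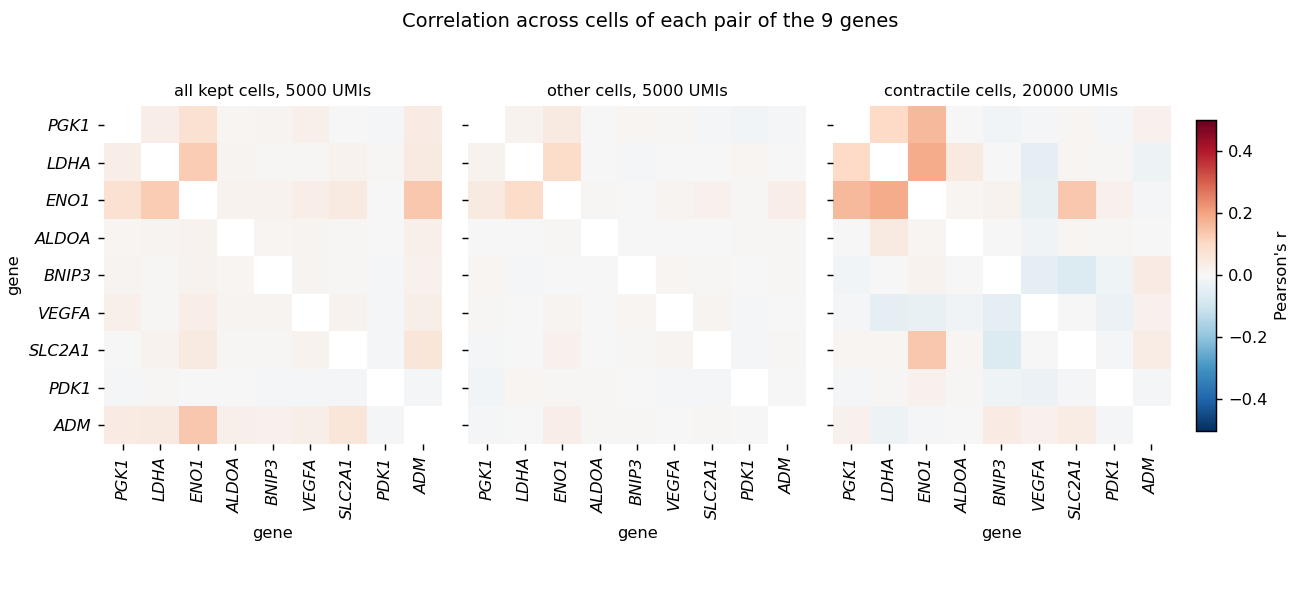
Pearson's r of log(1 + UMIs) across cells for each pair of the 9 genes (both axes are genes, colour is r, red above 0 and blue below, diagonal left blank), in all kept cells and in other cells at 5000 UMIs and in contractile cells at 20000 UMIs. The highest pair is ENO1 with ADM (0.135) in kept cells and LDHA with ENO1 in the other two panels (0.0934 and 0.186); in contractile cells PGK1 with ENO1 comes next (0.164).

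Contractile cells were deep enough for a closer view. At 20000 UMIs per cell, 1443 of them could be used, and the mean r over the 36 pairs was 0.0139. The highest pairs were LDHA with ENO1 at 0.186, PGK1 with ENO1 at 0.164, ENO1 with SLC2A1 at 0.135 and PGK1 with LDHA at 0.0996. ALDOA, the sparsest of the enzymes, was at 0.0459 with LDHA, 0.0112 with ENO1 and -0.00222 with PGK1. All pairs that held BNIP3, VEGFA, PDK1 or ADM lay between -0.0683 (BNIP3 with SLC2A1) and 0.0404 (BNIP3 with ADM). This depth was chosen after the other values were seen.

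Several genes varied between contractile cells on their own. LDHA had a variance of 3.29 times its mean at 20000 UMIs. Of the 1443 cells, 585 (40.5%) had no LDHA UMI, the median was 1, the upper 10% had 5 or more and the highest had 16. SLC2A1 had a ratio of variance to mean of 2.51, with 226 cells (15.7%) at 0, a median of 2, and 7 or more in the upper 10%. ADM was at 2.17 and ENO1 at 1.91. PGK1, with a mean of 3.46 UMIs, higher than that of LDHA (1.86), was at 1.19, near the value of 1 that counting error alone gives, and BNIP3 was at 1.08. LDHA and SLC2A1 were both uneven between these cells, and their r with each other was 0.00930. Contractile cells under 20000 UMIs were not among them. Cluster 8, high in LDHA and low in SLC2A1, had a median depth of 9624.5 UMIs.

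**Figure D4:**
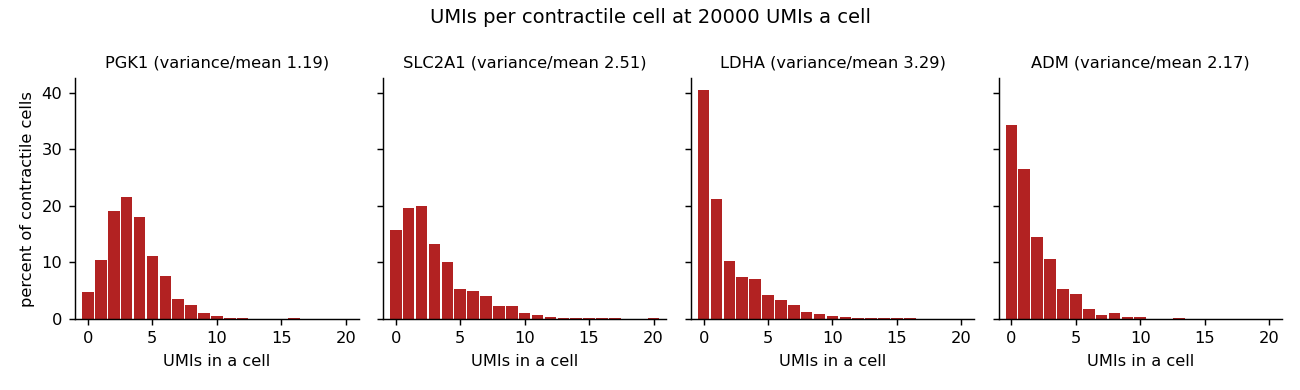
Percent of the 1443 contractile cells (y axis) with each number of UMIs (x axis) of PGK1, SLC2A1, LDHA and ADM after thinning to 20000 UMIs per cell. PGK1 has a peak at 3 UMIs and few cells at 0 (4.78%), while 40.5% of cells have no LDHA UMI and the rest reach up to 16.

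The genes with the highest r with single members in these cells were picked after the values were seen, among 9409 genes with a mean of at least 0.2 UMIs, and r is given as a description. ADM was highest with EDN1 (0.310), ANKRD1 (0.277), CTGF (0.276), CYR61 (0.269) and NPPB (0.263). EDN1 and NPPB encode vasoactive peptides and CTGF and CYR61 are known targets of YAP, and CTGF is part of the rule for the class. VEGFA was highest with AL357507.1 (0.293), DDIT4 (0.283), TRIB3 (0.273) and SLC7A11 (0.256), of which DDIT4 is one of the listed hypoxia-induced genes and TRIB3 and SLC7A11 are known targets of ATF4. LDHA went with FABP5 (0.272) and S100A10 (0.258), and SLC2A1 with KRT18 (0.271) and CDH11 (0.256). ENO1 went with HSP90AB1 (0.381), YBX1 (0.369), EIF5A (0.364) and HSPD1 (0.351), abundant genes of protein folding and translation. PGK1 was highest with ANXA2 (0.215), TMSB10 (0.210) and, as for ENO1, EIF5A (0.198). For BNIP3, PDK1 and ALDOA the highest were 0.118, 0.122 and 0.0926.

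The sum of the 9 genes was not scaled by gene, so genes with more UMIs weigh more in it. Mean UMIs in other cells were 1.83 for ENO1, 0.578 for PGK1 and 0.0142 for ALDOA. In other cells the 10 genes most like the sum of the 9, by r at 5000 UMIs over 12197 cells, were TUBA1B (0.207), HSP90AA1 (0.197), H2AFZ (0.188), ACTB (0.184), TMSB4X (0.180), RANBP1 (0.170), YBX1 (0.166), TAGLN (0.159), EIF5A (0.154) and PTMA (0.150). No listed gene of the hypoxia response was among them, which for 10 genes out of 10028 says nothing particular about that response. The 5 lowest were SOX5 (-0.183), MALAT1 (-0.157), CASC15 (-0.156), SMOC1 (-0.148) and BAZ2B (-0.145). In other cells 0.588% of all genes reached r of 0.1. Of the 14 other glycolysis genes with a mean of at least 0.05 UMIs in other cells, 4 reached 0.1, namely PKM (0.112), PGAM1 (0.110), TPI1 (0.102) and GAPDH (0.102). Their means in other cells ranged from 0.852 to 7.22 UMIs. The share of 0.588% is over genes of all levels past the filter, and sparse counts lower r. Whether these 4 stood above genes of a like level was not tested. PFKP passed over all kept cells only through its contractile cells, with a mean of 0.0603 in kept and 0.0239 in other cells, and is left out. Of the 12 other hypoxia-induced genes that passed none did, which at this share says nothing particular about them; the highest were FAM162A (0.0166), P4HA1 (0.0159), CITED2 (0.0130) and HILPDA (0.00987). The highest of the oxygen-sensing genes were VHL (0.0113), HIF1A (0.00424), ARNT2 (-0.00573) and ARNT (-0.0113). Those of pyruvate entry were PDHB (0.0367), MPC1 (0.0289), MPC2 (0.0271) and PDP1 (0.0269), and those of the VEGF and adrenomedullin partners KDR (0.0388), VEGFB (0.0117) and NRP1 (-0.0421). NRP2, at 0.0210, passed over all kept cells only through its contractile cells, with a mean of 0.0584 in kept and 0.0263 in other cells.

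The related genes show how far the class difference ran beyond the 9. Of 19 other glycolysis and transport genes, 3 were at least 2-fold higher per UMI in contractile than in other cells (7.5% of all genes) and none was 2-fold lower (23.7% of all genes), with a median ratio of 1.04 (0.774 over all genes). PFKP, a phosphofructokinase isoform, had the largest ratio at 16.7 (15.7 to 17.8), followed by SLC2A3 and by PGAM1, phosphoglycerate mutase, at 2.12 (2.09 to 2.16). PFKM, the muscle isoform, was at 0.544 (0.516 to 0.573), ALDOC at 0.629 (0.449 to 0.864) and PFKFB2 at 0.652 (0.548 to 0.772). PKM was at 1.78 (1.76 to 1.80), TPI1 at 1.10 (1.09 to 1.12) and GAPDH at 0.999 (0.992 to 1.01).

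Of 24 other hypoxia-induced genes, 8 were at least 2-fold higher (7.5% of all genes) and 2 at least 2-fold lower (23.7% of all genes), with a median ratio of 0.940 against 0.774 for all genes. BHLHE40, a transcriptional repressor, had 1119 UMIs in contractile and 60 in other cells (ratio 57.4, 44.2 to 75.7), so it is among the 8 only because its contractile cells took it past the filter of 100 UMIs. Among the 23 genes with 100 UMIs in other cells alone, a filter chosen after seeing the data, 7 were 2-fold higher and 2 were 2-fold lower, with a median of 0.934, against 6.30% and 24.0% of all genes that pass it. Next were STC2, a secreted glycoprotein, at 22.8 (20.8 to 24.98) and LOX, which crosslinks collagen, at 9.68 (8.51 to 11.0). The lowest were HILPDA, a lipid droplet protein, at 0.394 (0.374 to 0.414), MIR210HG at 0.454 (0.335 to 0.603) and BNIP3L. By UMIs per cell HILPDA was at 0.987 and MIR210HG at 1.14. Of the 9 oxygen-sensing genes none was 2-fold higher and 1 was 2-fold lower, no more than the shares of 7.5% and 23.7% over all genes. EGLN1, the main oxygen sensor, was at 1.41 (1.35 to 1.48), HIF1A at 1.18 (1.16 to 1.21) and EGLN2 at 1.05 (0.868 to 1.27). HIF3A was at 0.230 (0.202 to 0.260), ARNT2 at 0.524 (0.502 to 0.548) and VHL at 0.696 (0.661 to 0.733). The RNA of HIF1A does not show the amount of its protein, which oxygen sets.

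Around PDK1, 2 of the 9 tested genes of pyruvate entry were 2-fold higher and 1 was 2-fold lower (7.5% and 23.7% of all genes), with a median of 1.06. PDP1, the phosphatase that opposes the PDK kinases, was at 6.11 (5.88 to 6.35) and MPC1, part of the pyruvate carrier, at 2.23 (2.16 to 2.31), while PDK3 was at 0.405 (0.381 to 0.430). PDHB was at 1.59 (1.54 to 1.63), PDHX at 0.863 (0.825 to 0.902) and PDK2 at 0.937 (0.870 to 1.01). Around VEGFA and ADM, 5 of the 10 tested partners were 2-fold higher and 3 were 2-fold lower (7.5% and 23.7% of all genes), with a median of 2.28. RAMP1 and FLT1 are among the 5 only because their contractile cells took them past the filter, with 38 and 82 UMIs in other cells. Among the 8 partners with 100 UMIs in other cells alone, 3 were 2-fold higher and 3 were 2-fold lower, with a median of 1.51. The coreceptor NRP2 was at 10.5 (9.95 to 11.2), the ligand PGF at 6.49 (5.53 to 7.64) and RAMP2, which makes CALCRL a receptor for ADM, at 2.62 (2.42 to 2.84). CALCRL itself was at 0.222 (0.160 to 0.302), with 44 UMIs in contractile cells, NRP1 at 0.424 (0.398 to 0.450) and VEGFC at 0.415 (0.350 to 0.490).

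**Figure D5:**
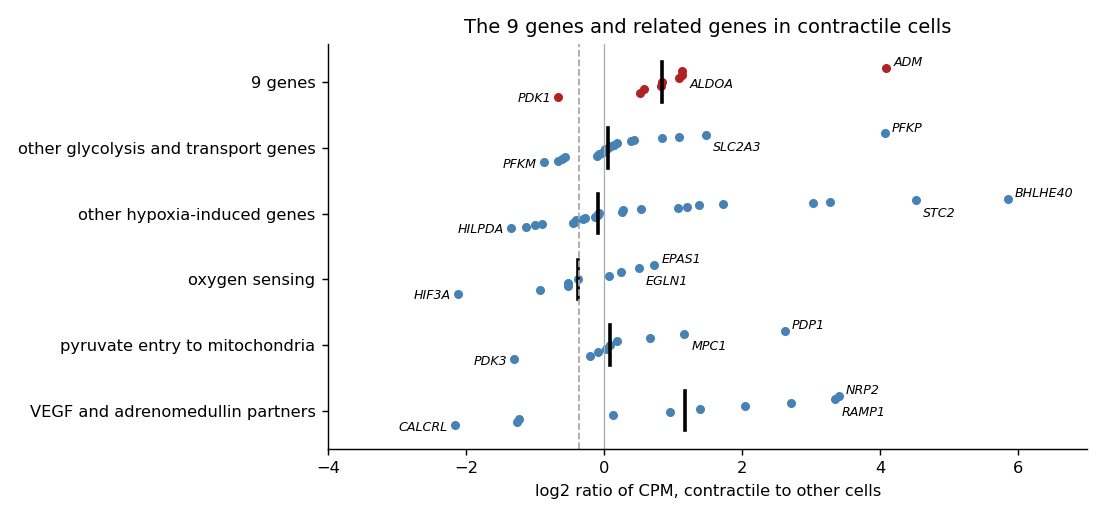
log2 ratio of CPM between contractile and other cells (x axis) for the 9 genes (red) and the genes of 5 related lists (blue, 1 point per gene with at least 100 UMIs, spread vertically by rank). Black bars are list medians, the solid line is no difference and the dashed line is the median of all 18642 genes, at -0.37; ADM and PFKP lie near 4, far from the rest of their rows, and the hypoxia-induced genes spread from HILPDA to BHLHE40, which passed the filter only through contractile cells.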

How the data were processed

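The authors deposited raw counts, that is, UMIs per gene and barcode, for 1 library (Chromium 3′ HT v3.1). Per the labels, the submitters' processing notes name Cell Ranger 7.0.1, Seurat 4.4.0 and the build GRCh38; the gene annotation used for counting is not given in the sources used here. The filter on genes and mitochondrial share followed the study's methods. Levels are summed UMIs of a gene over all UMIs of a class (CPM) with exact 95% Poisson intervals; ratios carry exact conditional intervals and shares of cells Clopper-Pearson intervals. Overlap of intervals is not a test. A fold of 2 was counted among genes with at least 100 UMIs in the classes compared. Cells were thinned without replacement to 5000 UMIs, which left out 28 cells. Doublets were not removed in the main analysis; in an alternative, the 1178 barcodes (8%) with the highest Scrublet scores were removed. Phases came from scanpy scores with the gene lists of Seurat. Clusters used Leiden on 30 components without the 9 genes and the 73 related genes. The scripts were tested on simulated data. The software was scanpy 1.11.5, leidenalg 0.10.2, igraph 0.11.9, scikit-learn 1.9.0, scipy 1.17.1, numpy 2.4.6, pandas 2.3.3 and matplotlib 3.10.9 under Python 3.11.15.

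The members, the marker lists and the lists of related genes were chosen with earlier results of these data known. The newborn neuron-like rule was set for this work. Named were the 9 genes; of each related list the 3 genes with the highest and the 3 with the lowest contractile ratio among those with at least 200 UMIs, and the 4 with the highest r in other cells; and over all genes the 10 with the highest and the 5 with the lowest r in other cells. Genes outside the rule that are named (ENO2, LDHB, RAMP1, FLT1 and those alike to single members) were chosen after their values were seen.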

Additional observations from a re-analysis of the deposited data

Results flagged for a closer look

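Barcodes outside the filter also held RNA of the 9 genes. In the 520 barcodes with fewer than 2000 genes the 9 genes summed to 475 CPM (434 to 520), with 482 UMIs, and in the 430 with a mitochondrial share of 10% or more to 570 CPM (542 to 600). The 94 barcodes with more than 10000 genes were at 1157 CPM (1136 to 1179), against 842 CPM (839 to 845) in kept cells. Of these 94, 85.1% met the contractile rule, against 11.4% of kept cells. They stand here as signal in barcodes outside the main comparisons, and the setting with all barcodes includes them.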

How the results depend on the processing

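The median contractile ratio of 1.79 became 4.49 by UMIs per cell, with 8 genes at least 2-fold higher instead of 4. It was 1.91 by the mean of per-cell CPM, 1.88 after thinning, 1.81 and 1.82 with contractile limits of 3 and 10, 1.84 with classes from clusters, 1.76 over all barcodes, 1.91 below a mitochondrial share of 0.05, 1.81 without the highest Scrublet scores and 1.84 without the cells at scores of 3 to 7, the last chosen after seeing the data. In these other settings 4 genes were at least 2-fold higher. For newborn neuron-like cells, the limit of 3 gave a median of 0.689 with 2 genes at least 2-fold lower, and thinning gave 1 gene at least 2-fold higher (BNIP3, 2.15). The ALDOA ratio there turned to 1.18 after thinning, with 2 UMIs. The ADM ratio there could not be given in 3 settings that left it at 0.

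The mean r of 0.0232 became 0.0113 at 2500 UMIs (0 pairs at 0.1 or more, instead of 2), 0.0365 at 10000 (4 pairs) and 0.0698 without thinning (10 pairs). It was 0.0211 by Spearman correlation, 0.0293 below a mitochondrial share of 0.05, 0.00748 in other cells alone (0 pairs), 0.00737 averaged over their cell cycle phases (0 pairs), and 0.00585 in contractile cells alone (0 pairs) or 0.0139 at 20000 UMIs, both settings of contractile cells chosen after seeing the data. The cause of these moves was not tested, apart from the depth and the cells that each setting changes.

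With 1 library, clones, capture wells and culture cannot be told apart from cell classes, and no value here has a replicate. Counts under 10 UMIs (ADM, ALDOA and VEGFA in newborn neuron-like cells, and PDK1 there after thinning) allow wide ranges. No paired analysis was possible because there is 1 sample.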
